A study of Mus musculus with 6 samples.

Results

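The 47 genes described here encode amino acid carriers of the plasma membrane and lysosome, enzymes of serine, one-carbon, glutamate, proline, branched-chain and sulfur amino acid metabolism, and the stress transcription factor ATF4 with 4 further stress genes. They were chosen by name, as rows of the deposited expression table, and all 47 were among its 19078 genes. Poly(A) RNA of immortalized mouse fibroblasts (MF) was sequenced after growth in DMEM with serum, with 3 libraries labelled *Ms4a15* OE and 3 labelled control. The parental line is a conditional *Gpx4* -/- embryonic fibroblast that expresses Cre-ERt2. *Ms4a15* OE cells carry a CRISPR activation system and a guide that directs it to the endogenous *Ms4a15* *gene*, and they are a pool and not a single clone. Whether control cells carry the activation system as well is not stated outright in the paper's methods. Control cells received an empty lentivirus, and the labels give their genotype as wild type. Every library thus comes from the same conditional *Gpx4* background.

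The values given below are means over all 6 libraries, *Ms4a15* OE and control together, as the authors made them. Each is the mean of read counts divided by a size factor, which corrects a library for its depth, and is termed a mean normalized count. These means show how much of each transcript the fibroblasts held across both groups. They do not show whether a *gene* differs between *Ms4a15* OE and control, which was not analysed here, since the remaining columns of the table hold the authors' own comparison. For comparisons between members, the mean normalized count was divided by the summed length of all annotated exons in kilobases. This quantity is termed the level, and other lengths are named where they are used. Means not divided by length also rise with the length of a transcript. Levels of all genes had a median of 117 normalized counts per kilobase, with quartiles of 2.33 and 512, over the 16160 genes for which the annotation gave a length.

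Amino acid carriers move their substrates across membranes by exchange, by coupling to sodium or protons, or down the membrane potential. When amino acids run short or proteins fold badly in the ER, kinases of the integrated stress response slow general translation while the ATF4 transcript is translated more. ATF4 then raises transcription of carriers, of asparagine and serine synthesis enzymes and of aminoacyl-tRNA synthetases. Carriers and serine metabolism also bear on ferroptosis, since cystine, glycine and glutamate feed the synthesis of glutathione.

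Size factors were worked out from the lowest means of the table, which repeat at 6 values, each that of 1 read in a single library. They ran from 0.887 to 1.14, so that the highest was 1.28 times the lowest, and the 6 libraries could not be matched to the groups. The means of all genes summed to 40991755 normalized counts. All 10 fibroblast markers had means of at least 278 normalized counts, led by *Col1a2* at 135155, whereas the 5 epithelial markers in the table summed to 14.6, the 4 endothelial markers to 125 and the 5 myeloid markers to 728, of which *Lyz2* gave 534. *Ms4a15* itself had a mean of 638 normalized counts over both groups, which does not check the labels.

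As a list, the genes were abundant. Their means summed to 361787 normalized counts, or 0.883% of the total, while they make up 0.246% of the genes. Means of at least 10 normalized counts were found for 45 of the 47 (95.7%), against 67.7% of all genes. Means of at least 10000 were found for 14 of the 47 (29.8%), against 4.2% of all genes. On the scale of levels, the median of the 47 genes was 1080 normalized counts per kilobase, and 20 of them (42.6%) were above the 90th percentile of all genes, while none was above the 99th. At the other end, 9 of the 47 were below the median of all genes. These shares describe the list, which was put together by function and with earlier results of these data known.

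**Figure D1:**
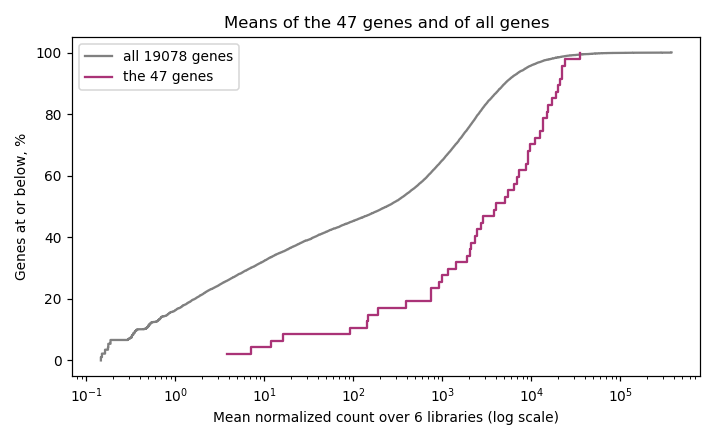
Cumulative share of genes (y axis, percent) by mean normalized count over 6 libraries (x axis, log scale), for all 19078 genes (grey) and the 47 genes (purple). The purple curve lies to the right of the grey one over most of the range: 29.8% of the 47 genes and 4.2% of all genes have a mean of at least 10000.

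Asparagine and serine synthesis was the role with the highest summed level, 20574 normalized counts per kilobase over 4 genes, which is 23.2% of the summed level of all 47. *Phgdh*, which encodes the first enzyme of serine synthesis from a glycolytic intermediate, had the highest level of the 47 genes. It lies on the reverse strand of chromosome 3 (GRCm38) from 98313170 to 98339990, with a mean normalized count of 22015 and a level of 8856 per kilobase. *Psat1*, the transaminase of the second step, was at a level of 4512 per kilobase, and *Psph*, the phosphatase that releases serine, at 885. Levels of the serine enzymes thus followed the order of their steps, and that of *Psph* was 5.10 times below that of *Psat1*. *Asns*, which makes asparagine from aspartate and glutamine, was at 6321 per kilobase, the fourth highest of the 47 genes. Divided by the coding length alone, *Psat1* (17291 per kilobase) stood above *Phgdh* (13768) and *Asns* (10273), so the order of these 3 depends on the length used. On that scale *Slc38a2*, a carrier of small neutral amino acids, was the highest of the 47 genes, at 23255 per kilobase.

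Folate enzymes carry the one-carbon unit of serine through parallel chains of reactions in mitochondria and cytosol. *Shmt2*, the mitochondrial enzyme that splits serine into glycine and a one-carbon unit, lies on chromosome 10 from 127517123 to 127522444 and had a level of 6813 per kilobase. Its cytosolic counterpart *Shmt1* was at 738, so the mitochondrial transcript was 9.23 times the cytosolic one. *Mthfd2*, the mitochondrial dehydrogenase and cyclohydrolase that follows, was at 3199 per kilobase. Its paralog *Mthfd2l* was at 103. The last mitochondrial step is made by *Mthfd1l*, at 1459 per kilobase, while *Mthfd1* makes all corresponding cytosolic steps in one protein and was at 1955. The ratio of *Mthfd1l* to *Mthfd1* was thus 0.746, on the other side of 1 from that of the Shmt pair. That ratio stands for the last step only. For the steps before it, the level of *Mthfd2* was 1.64 times that of *Mthfd1*, on the same side as the Shmt pair. Of the other 28 genes listed for serine, one-carbon and methionine metabolism, 25 were in the table and 21 had a mean of at least 10. Highest among these were *Mtap*, which salvages methionine, at 4096 per kilobase, and *Gcsh*, a subunit of the glycine cleavage system, at 3836. *Ahcyl1*, a relative of *Ahcy*, followed at 1993. *Gldc* and *Amt*, further subunits of the glycine cleavage system, were far lower, at 0.716 and 13.1 per kilobase.

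Transaminases and glutamate enzymes showed both balances between compartments. *Got2*, the mitochondrial aspartate transaminase on chromosome 8, was at 3192 per kilobase and the cytosolic *Got1* at 2025, a ratio of 1.58. *Bcat1*, the cytosolic branched-chain transaminase, was at 1472 per kilobase and the mitochondrial *Bcat2* at 301, a ratio of the mitochondrial to the cytosolic transcript of 0.204. Each of the 4 isoenzyme pairs was on the same side of 1 with all 3 lengths used. *Glud1*, glutamate dehydrogenase, was at 2309 per kilobase and *Gpt2*, the mitochondrial alanine transaminase, at 487. *Pycr1*, which makes proline in mitochondria, was at 190 per kilobase, the lowest level of this role. Its paralog *Pycrl* was at 1791, and *Aldh18a1*, which catalyses the preceding steps of proline synthesis, was at 2041. Of 21 other genes of glutamine, proline and branched-chain metabolism, 20 were in the table and 17 had a mean of at least 10. *Odc1*, the first enzyme of polyamine synthesis, had the highest level of these, 6941 per kilobase, followed by *Oat*, ornithine aminotransferase, at 2425 and *Aldh18a1*.

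**Figure D2:**
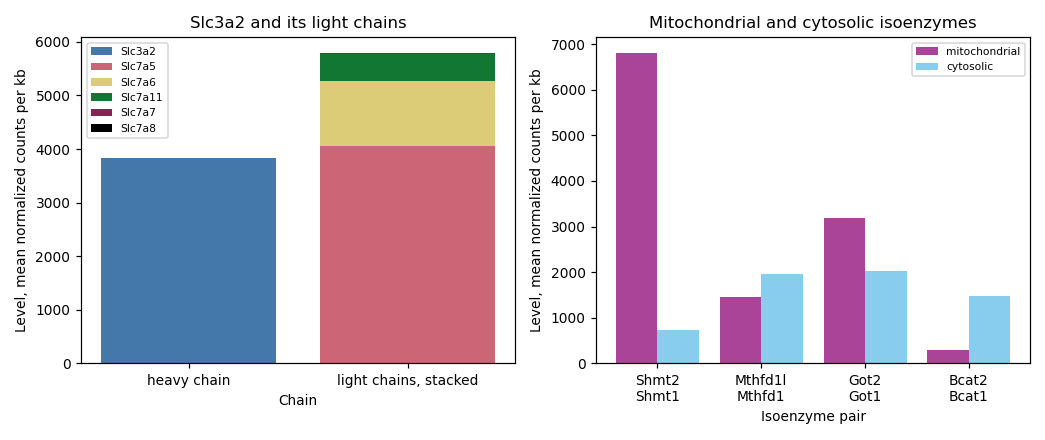
Levels (y axes, mean normalized counts per kilobase of exon, linear, from 0) of *Slc3a2* beside the stacked light chains (left) and of mitochondrial and cytosolic isoenzymes (right), as means over 6 libraries with no error bar (*Slc7a7* and *Slc7a8* are too low to be seen). *Slc3a2* reaches 3839 and the light chains together 5798, of which *Slc7a5* is 70.0%, and *Shmt2* stands 9.23 times above *Shmt1* while *Bcat2* stands at 0.204 of *Bcat1*.

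*Mat2a* and *Ahcy* of the methionine cycle were high in level and the first step of transsulfuration was low. *Mat2a*, which makes S-adenosylmethionine, was at 4958 per kilobase, and *Ahcy*, which clears S-adenosylhomocysteine, at 3281. *Mtr*, which closes the cycle, is not one of the 47 and was at 182 per kilobase. In transsulfuration, *Cbs* joins homocysteine with serine to cystathionine and *Cth* then releases cysteine. *Cth* had a mean normalized count of 1882 and a level of 674 per kilobase. *Cbs*, on chromosome 17 from 31608894 to 31637238, had a mean of 7.11 and a level of 0.949, with a 95% exact Poisson interval from 0.671 to 1.3 that covers counting error only. The level of *Cth* was 710 times that of *Cbs*, the widest step between neighbours of any role. This factor was 908 with the longest transcript and 373 with the coding length. Among the 47 genes *Cth* ranked 29 and *Cbs* 46 by level.

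For *Cbs* and *Slc7a8* the means are low enough to be resolved into whole reads of the single libraries. Only 1 set of 6 whole numbers of reads, divided by the size factors, gave each mean within rounding. In order of falling size factor, the 6 libraries held 10, 7, 6, 12, 1 and 7 reads of *Cbs*, or 43 in all. They held 1, 5, 6, 3, 5 and 3 reads of *Slc7a8*, or 23 in all. Every library thus held at least 1 read of either *gene* and none more than 12. After division by the size factors, *Cbs* ranged from 1.07 to 12.7 normalized counts with a median of 7.11, and *Slc7a8* from 0.880 to 5.88 with a median of 3.95. *Slc1a1* and *Slc7a3*, at means of 11.9 and 16.4, allowed 2 and 5 such sets, so their reads per library are not given.

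**Figure D3:**
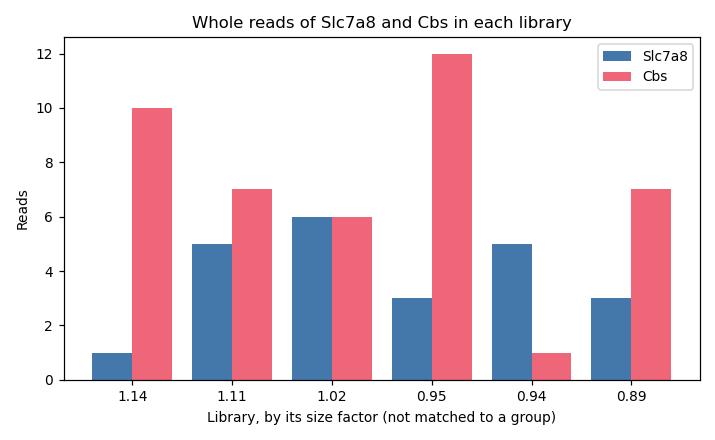
Whole reads (y axis) of *Slc7a8* (blue) and *Cbs* (red) in each of the 6 libraries, ordered along the x axis by falling size factor and not matched to a group. *Slc7a8* ranges from 1 to 6 reads and *Cbs* from 1 to 12.

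Among the carriers, 1 or 2 members led each family. Heteromeric carriers consist of a light chain that transports and the heavy chain *Slc3a2* (CD98hc), which takes the light chain to the plasma membrane. *Slc3a2* lies on the reverse strand of chromosome 19 from 8706882 to 8723369, with a mean normalized count of 13549 and a level of 3839 per kilobase. *Slc7a5*, its partner in the carrier of large neutral amino acids such as leucine, lies on chromosome 8 from 121881150 to 121907694 and was at 4056 per kilobase. *Slc7a6*, a light chain that exchanges cationic for neutral amino acids, was at 1207 per kilobase. *Slc7a7*, with a like function, was at 28.1 and *Slc7a8*, a second light chain for neutral amino acids, at 0.771 per kilobase (95% exact Poisson interval 0.474 to 1.18, counting error only), the lowest level of the 47 genes, with an interval that overlaps that of *Cbs*. *Slc7a11*, the light chain of the cystine and glutamate exchanger, is not one of the 47 and was at 506. Of the 6 light chains listed, 5 were in the table, and their summed level was 5798 per kilobase. The level of *Slc3a2* was 0.662 times that sum, and stayed below it with both other lengths. *Slc7a5* made up 70.0% of the sum, *Slc7a6* 20.8% and *Slc7a11* 8.72%. The share of *Slc7a11* rests on an exon length of 13.9 kb, and by coding length its level was 4675 per kilobase, above the 3570 of *Slc7a6*.

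Carriers of the CAT family take up cationic amino acids. *Slc7a1* (CAT1), the widely expressed arginine and lysine carrier, was at 1080 per kilobase and made up 80.7% of the summed level of its role. *Slc7a2* was at 255 and *Slc7a3* at 4.33 per kilobase, so that each was well below the one before it. *Slc7a1* has 11.5 kb of exons and a coding length of 1.87 kb, and it had the highest level of the 3 with either length.

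Sodium-coupled carriers of the SLC38 family take up glutamine, alanine and other small neutral amino acids. *Slc38a2* (SNAT2), known for its induction when amino acids are scarce, had the highest mean of the 47 genes before division by length, 35162 normalized counts, and ranked 8 by level, at 3978 per kilobase. *Slc38a4* was at 1613 and *Slc38a1* at 539 per kilobase. The order of the latter 2 turned with the coding length, at 4188 for *Slc38a4* and 6383 for *Slc38a1*. These 3 genes lie next to each other among the 47 on the reverse strand of chromosome 15, *Slc38a1* from 96571418 to 96642913, *Slc38a2* from 96687392 to 96699730 and *Slc38a4* from 96994820 to 97055956. Gaps of 44.5 kb and 295 kb separate them. The lysosomal members were lower: *Slc38a7*, which exports glutamine from lysosomes, was at 181 per kilobase, and *Slc38a9*, which senses arginine for mTORC1, at 11.5.

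In the SLC1 family, the neutral exchangers were high and the glutamate carriers low. *Slc1a5* (ASCT2), which exchanges glutamine, was at 1757 per kilobase and *Slc1a4* (ASCT1), which carries serine and alanine, at 1035. *Slc1a3*, a glutamate and aspartate carrier best known from glia, was at 16.7 and *Slc1a1*, the neuronal and epithelial glutamate carrier, at 1.44 (95% exact Poisson interval 1.11 to 1.84, counting error only). *Slc1a4* was thus 61.9 times *Slc1a3*, the widest step between neighbours in this family. This factor was 32.1 with the longest transcript and 29.0 with the coding length. Exons of another *gene* on the opposite strand, *4430402I18Rik*, cover 31.9% of those of *Slc1a1*, and that *gene* had a mean of 0.147 normalized counts.

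*Slc6a6*, the taurine carrier, led the remaining families with a mean of 23851 normalized counts and a level of 2820 per kilobase. *Slc6a9*, a glycine carrier, was at 398. Of its exons, 27.8% overlap those of *Ccdc24* on the opposite strand, which had a mean of 351 normalized counts. The proton-coupled lysosomal carrier *Slc36a1* was at 175 per kilobase and its relative *Slc36a4* at 60.4. *Slc43a2*, a facilitative carrier of branched-chain and aromatic amino acids, was at 14.7. Of 41 other carriers listed, counting older symbols apart, 32 were in the table and 18 had a mean of at least 10. Highest in level were *Slc25a13*, a mitochondrial aspartate and glutamate carrier, at 837 per kilobase, *Slc38a10* at 760 and *Sfxn3* at 720.

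**Figure D4:**
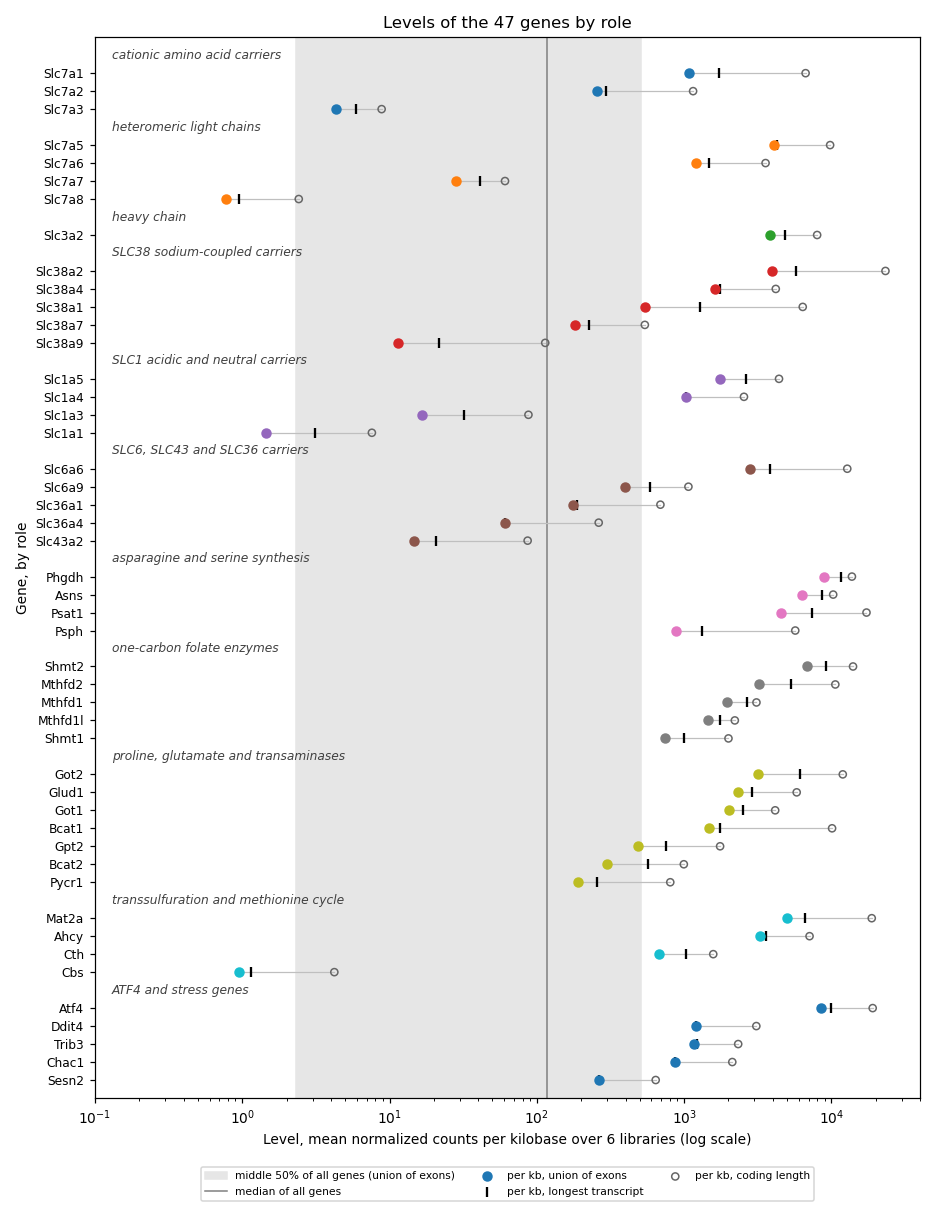
Levels of the 47 genes (x axis, mean normalized counts per kilobase over 6 libraries, log scale) by role (y axis), with filled points for the union of exons, ticks for the longest transcript and open circles for the coding length. The grey band holds the middle 50% of all genes, from 2.33 to 512, and the line their median of 117: *Phgdh* is highest at 8856, and *Slc7a8* and *Cbs*, at 0.771 and 0.949, lie with *Slc1a1* left of the band.

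*Atf4* lies on chromosome 15 from 80255184 to 80257541, with a mean normalized count of 19944 and a level of 8458 per kilobase, the second highest of the 47 genes. Since ATF4 is controlled largely at translation, its transcript level says little of its protein, which was not measured here. The 4 other genes of this role, each among the known targets of ATF4, were lower in level. *Ddit4*, an inhibitor of mTORC1 that also responds to hypoxia, was at 1209 per kilobase, and *Trib3*, a pseudokinase that acts back on ATF4, at 1163. These levels differed by a factor of 1.04, the closest pair of neighbours of any role, and their order turned with the longest transcript, where *Trib3* was at 1220. *Chac1*, which degrades glutathione, was at 867 per kilobase and *Sesn2*, a leucine sensor upstream of mTORC1, at 266. Of 34 other genes linked to ATF4, all were in the table and 31 had a mean of at least 10. The highest levels were those of *Gars* and *Nars*, synthetases that load glycine and asparagine onto their tRNAs, at 6516 and 5802 per kilobase, and of *Xpot*, which exports tRNAs, at 2920. The 3 genes with a mean below 10, named here after their values were seen, were *Gdf15* with 5 reads over the 6 libraries, *Atf3* with 9 and *Fgf21* with 51.

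ATF4 binds, with C/EBP proteins, a response element whose core reads TGATGNAA. These letters were looked for on both strands of RefSeq promoter windows of GRCm38.p6, from 250 bases before to 50 after each start, so that the members that hold them could be seen beside their levels. Windows were found for 40 of the 47 genes, and 7 of them (17.5%) held the letters, against 4.51% of 27025 genes with a window. By window, it was 8 of 54 (14.8%), against 3.97% of 32851. The list was put together by function and includes known targets of ATF4. A share above that of all genes is thus no separate finding about the members. The 7 genes were *Asns*, *Chac1*, *Trib3*, *Got1*, *Pycr1*, *Slc1a4* and *Slc7a7*, with levels from 28.1 for *Slc7a7* to 6321 for *Asns*. Their median level was 1035 per kilobase and that of the 33 others 1207. The sites of *Asns*, *Chac1*, *Trib3* and *Slc1a4* follow, 5′ to 3′ on the strand of the *gene*, with the matched letters in capitals, which read as the reverse complement in all but *Asns*.
*Asns*: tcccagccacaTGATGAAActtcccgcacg
*Chac1*: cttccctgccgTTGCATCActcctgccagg
*Trib3*: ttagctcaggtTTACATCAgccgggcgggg
*Slc1a4*: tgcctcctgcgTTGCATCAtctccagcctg
These lie at chr6:7693214-7693243, chr2:119351038-119351067, chr2:152344028-152344057 and chr11:20332699-20332728. The match of *Asns* begins 23 bases before the RefSeq start and that of *Chac1* 193 bases before it. That of *Trib3* begins 14 bases after it and that of *Slc1a4* 4 bases before it. GENCODE, used for the other coordinates, starts *Asns* at 7693254 and *Trib3* at 152344032, both on the reverse strand. By those starts the letters of *Asns* lie after the start and those of *Trib3* before it. A match of letters is no measure of binding, and a window without one says nothing of sites elsewhere.

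Within the roles, 36 pairs of neighbours in the order of levels could be formed, and in none did the 95% exact Poisson intervals overlap. These intervals cover counting error only, and the spread between libraries could not be added for genes above a few reads. They are narrow beside the effect of the length used. With the longest transcript, 7 of the 47 levels stayed within their interval, and with the coding length none did. The order of 4 pairs turned with another length: *Slc38a4* and *Slc38a1*, *Asns* and *Psat1*, *Got1* and *Bcat1*, and *Ddit4* and *Trib3*. Exons of another *gene* on the opposite strand overlap those of 15 of the 47 genes, and whether the counting used strand is not given in the sources used here. Some of these partners had higher means than the member. *Cct6a*, at a mean of 36304 normalized counts, overlaps 10.4% of the exons of *Psph*, whose mean was 3833. *Oxa1l*, at 2283, overlaps 7.0% of those of *Slc7a7*, at 93.1, and *Smcr8*, at 5489, overlaps 4.74% of those of *Shmt1*, at 2866. Some 100-base stretches in transcripts of the 47 genes cannot be told from those of other genes by sequence. For *Ahcy*, 63.6% of the 100-base stretches of its transcripts also stand in transcripts of other genes, *Gm4737* and *Gm9826*, and for *Phgdh* 28.1%. The labels give reads of 150 bases, and shares for stretches of that length were not computed. Stretches of 100 bases shared with a *gene*, also one on the opposite strand, were at least 5% for 9 of the 47 genes and absent for 28. Their part in the levels was not tested.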

How the data were processed

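RNAseq of 3 *Ms4a15* OE and 3 control libraries of mouse fibroblasts was analysed, grouped by the sample labels. Per the paper's methods, the authors aligned reads to mm10 with STAR, assigned them to genes with HTSeq-count and used DESeq2 for the comparison of the groups, while the submitters' processing notes also name TopHat, Cufflinks and Cuffdiff. The labels give paired reads of 150 bases and the paper's methods 100. The strand setting of the counting is not given in the sources used here. From the deposited table, the signal used was the authors' average of size-factor-scaled counts across the 6 libraries, both groups pooled. The other columns hold the authors' own fold changes, standard errors, p-values and direction calls and were not used. Therefore no test between the groups was made and no SD between replicates is given.

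Levels are means per kilobase of exon of GENCODE M21 (GRCm38, the assembly of mm10). All 47 genes were found there by symbol, and 16160 of the 19078 genes (84.7%), of which 1484 through an older symbol in RefSeq's *gene* table. Alternatives were the longest transcript, the coding length (taken from the annotated coding sequence), minimum means of 1 and 100 normalized counts, and leaving out the 10 highest genes. Percentiles are the share of genes with a lower value. Reads per library were recovered by searching all sets of whole numbers that give a mean within 7.67e-10 of the printed value. Of 4995 genes with a mean under 4, 4992 had exactly 1 such set. This check does not reach *Cbs*, at a mean of 7.11. The size factors had been refined on 399 genes with low means, a range that overlaps that of the check. The search was also run on simulated data, with the outcome not given here. Poisson intervals took the lowest read total that the size factors allow. All 47 genes could be named, by role, with the 3 highest genes of each other list, the light chains and direct partners. Members and lists were chosen with earlier results of these data known. All steps ran in Python 3.11.15 (numpy 2.4.6; pandas 2.3.3). Intervals came from scipy 1.17.1 and plots from matplotlib 3.10.9.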

Additional observations from a re-analysis of the deposited data

How the results depend on the processing

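Of the 47 genes, 45 reached the minimum mean of 10 normalized counts, 47 a minimum of 1 and 42 a minimum of 100. The share of all normalized counts, 0.883%, was 0.929% without the 10 highest genes and 0.883% for the 45 above that minimum. The median percentile of 87.4 was 87.0 without division by length and 83.7 when genes under 10 were left out. With the longest transcript and the coding length, the ratio of *Slc3a2* to its light chains went from 0.662 to 0.735 and 0.442, that of *Mthfd1l* to *Mthfd1* from 0.746 to 0.655 and 0.713, that of *Got2* to *Got1* from 1.58 to 2.44 and 2.88, and that of *Bcat2* to *Bcat1* from 0.204 to 0.322 and 0.0985. The ratio of *Shmt2* to *Shmt1* was 9.23 and 7.01. No ratio crossed 1. The leading *gene* of each of the 11 roles was the same with the longest transcript, and in 10 with the coding length, where *Psat1* replaced *Phgdh*. Levels rose by a median factor of 1.35 with the longest transcript and 2.96 with the coding length, the most for *Slc38a1* (2.37 and 11.8), as follows from the shorter lengths. Counting error was under 10% for all but *Slc7a3*, *Slc7a8*, *Slc1a1* and *Cbs*. No paired analysis was possible because the pooled means carry no replicate number, and for the same reason no replicate was left out.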
